A study of Mus musculus with 6 samples.

Results

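Bone morphogenetic proteins (BMPs) are secreted signals whose action outside the cell is set by proteins that bind them or block their receptors. The 9 genes described here, Nog, Chrd, Grem1, Sostdc1, Twsg1, Bmper, Fst, Fstl1 and Bambi, encode such secreted or membrane antagonists. They were chosen by gene symbol from the 25899 gene symbols of the deposited table. All 9 were present, and all 9 had a mean of at least 1 read per 1000000 mapped reads (RPM) over the 6 libraries, the limit for testing, which 14444 genes met.

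RNA came from the apical dental mesenchyme of mouse mandibular first molars at postnatal day 7.5, when molar roots begin to form. The 3 mutant libraries carried Gli1-CreER together with Bmpr1afl/fl, and the 3 littermate control libraries carried Bmpr1afl/fl without the driver. Both groups therefore held loxP-flanked (floxed) alleles of Bmpr1a, a type I BMP receptor, on a mixed background (C57Bl6/129S6/SvEvTac). CreER is a recombinase that needs tamoxifen and is made here only in Gli1-expressing cells. The deletion passes to their descendants, while cells outside that lineage keep the receptor. The tamoxifen schedule, and whether controls were treated, are not given in the labels. Controls 1 and 2 and mutants 1 and 2 were from litter 1; control 3 and mutant 3 were from litter 2. The labels do not say that each library is 1 animal, so p-values measure only the spread between these libraries.

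Antagonists shape a BMP signal in several ways. Noggin, chordin and gremlin 1 hold the ligand so that it cannot reach its receptor, while BAMBI is a membrane pseudoreceptor without a kinase domain. Follistatin binds activins most tightly and some BMPs. In the tooth, the BMP and Wnt antagonist SOSTDC1 (ectodin, Wise) is known for restraining signaling centres in the epithelium, and its loss alters cusps and tooth number. Several antagonist genes are themselves induced by BMP signaling, which makes them part of negative feedback.

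The libraries held between 15916045 and 20609420 reads on genes. Members were covered by 10 to 44187 reads in a library, so counting error matters mainly for Grem1 and Bmper. Bmpr1a was at 121, 139 and 149.5 RPM in controls 1 to 3 and at 108, 120 and 111 RPM in mutants 1 to 3, without overlap (log2 change -0.27, SE 0.14; limma, adjusted p 1.00). These totals include exons that the deletion leaves in place and cells in which no deletion took place. Gli1, the driver locus, changed by -0.70 (SE 0.29; limma, unadjusted p 0.046, adjusted p 1.00), also without overlap. Control and mutant levels did not overlap for 2.64% of all tested genes. Of 7 mesenchymal markers, Vim (1525 to 2487 RPM) and Col1a1 (4871 to 28920.2 RPM) were abundant in every library. Lower levels were seen for Twist1 (41.4 to 68.6 RPM), Prrx1 (32.6 to 64.2 RPM) and Pax9 (18.7 to 50.9 RPM). Epithelial markers were also present throughout: 5 general epithelial markers (Krt5, Krt14, Epcam, Cdh1, Cldn1) summed to 204.6, 1472 and 2686 RPM in controls 2, 1 and 3 and to 969, 2731 and 3733 RPM in mutants 2, 1 and 3. A further 7 enamel markers summed to more than the 7 mesenchymal markers in control 3 (36754 against 24084 RPM) and mutant 1 (47439.7 against 44737 RPM). The same held in mutant 3 (17083 against 9775 RPM). In controls 1 and 2 and mutant 2 the enamel sum was the smaller. In bulk tissue, fewer cells of a type and less RNA per cell cannot be told apart.

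Promoter windows were available for Chrd, Grem1, Fstl1, Twsg1 and Bmper (RefSeq, GRCm38.p6), reaching from 250 bases before to 50 bases after the start of the gene. Those of Chrd and Grem1 are shown because both genes separated the litters, in opposite directions. Such separation is common: 35.5% of all tested genes showed it, and so did Sostdc1, which had no window. The windows of Chrd and Grem1 were also the 2 of 5 with a GC-rich Smad site. A link between this site and the litter difference was not tested. The letters searched were GGCGCC, which reads the same on both strands. Such a site is one of the sequences that BMP-activated Smads are known to bind. Capitals mark the match, which starts at base 48 of the Chrd window and at base 173 of the Grem1 window.
Chrd, chr16:20732877-20733176, plus strand: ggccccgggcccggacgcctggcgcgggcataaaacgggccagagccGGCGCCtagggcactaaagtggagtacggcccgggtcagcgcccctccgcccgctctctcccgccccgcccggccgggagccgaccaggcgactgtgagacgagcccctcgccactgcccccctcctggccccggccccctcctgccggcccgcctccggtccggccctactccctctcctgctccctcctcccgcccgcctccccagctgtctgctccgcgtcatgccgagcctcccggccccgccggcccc
Grem1, chr2:113758599-113758898, minus strand: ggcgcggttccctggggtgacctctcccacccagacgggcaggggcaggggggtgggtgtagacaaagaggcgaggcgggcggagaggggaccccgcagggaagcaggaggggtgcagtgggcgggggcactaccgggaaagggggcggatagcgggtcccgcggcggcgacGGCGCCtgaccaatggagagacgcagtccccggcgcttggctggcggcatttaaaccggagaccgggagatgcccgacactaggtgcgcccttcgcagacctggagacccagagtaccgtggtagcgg
GGCGCC was found in 11.9% of all 32851 windows of this length. The shorter Smad box GTCT, searched on both strands, was found 2 times in the Chrd window and 6 times in the Grem1 window, against a median of 2. It occurred in 88.0% of all windows. The Chrd window was 78.3% G and C and the Grem1 window 70.7%, against a median of 52.7%. A match of letters is a description of the window and not a measured binding site.

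The antagonists differed widely in level. RPM values were divided by the length of the merged exons of each gene (GENCODE M21, GRCm38), giving RPM per kb, so that genes could be compared. Fstl1, a secreted follistatin-like glycoprotein, was highest at 255 ± 43.0 RPM per kb (mean ± SD over the 6 libraries) and ranked 1 in every library. It made up 59.2% of the summed length-scaled level of the 9 genes. Sostdc1 at 52.8 ± 25.9, Bambi at 52.1 ± 19.6 and Twsg1 at 52.1 ± 7.60 RPM per kb followed, and these 3 exchanged ranks 2 to 4 between libraries. Nog at 7.11 ± 1.68, Fst at 5.63 ± 3.04 and Chrd at 4.77 ± 2.18 RPM per kb exchanged ranks 5 to 7. Bmper at 0.877 ± 0.297 was above Grem1 at 0.357 ± 0.204 RPM per kb in 6 of 6 libraries. Neighbours within the group of ranks 2 to 4, and within that of ranks 5 to 7, thus did not differ beyond their spread. For comparison on the same scale, the ligand genes Bmp2, Bmp7 and Bmp4 had mean levels of 46.4, 45.9 and 32.7 RPM per kb, and Inhba, an activin subunit that follistatin binds as a dimer, had 0.279. Inhbb, the other activin subunit listed, had 5.48 RPM per kb, near the level of Fst. The merged exons include alternative ends that may not be used in this tissue, which lowers a gene's length-scaled level.

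**Figure D1:**
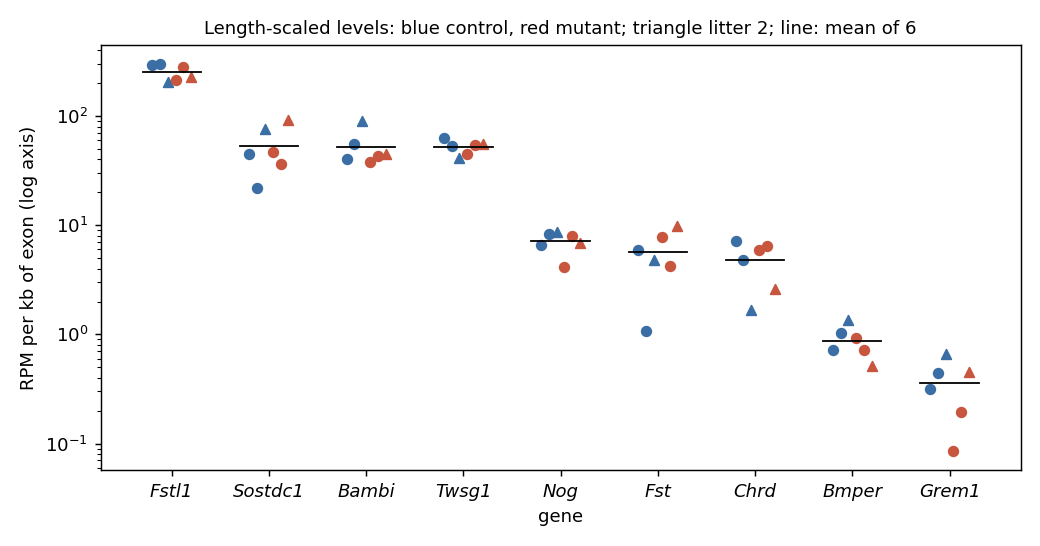
Length-scaled level of the 9 antagonist genes in each library, in RPM per kb of exon on a log axis, ordered by the mean of 6 libraries (line). Blue points are controls, red points mutants and triangles litter 2. Fstl1 lies above all others, 3 genes share a level near 52 RPM per kb, and Bmper and Grem1 are lowest.

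The question of the main comparison was whether removing Bmpr1a from Gli1-expressing cells and their descendants was accompanied by a change in these antagonists. Only the mutants carried the driver, so the driver allele and the deletion cannot be told apart. None of the 9 antagonists passed the test. At an adjusted p under 0.05 (limma, Benjamini-Hochberg over all tested genes) 0 of 9 were called, as were 0 of 14444 genes (0%). At an unadjusted p under 0.05 also 0 of 9 were called by limma, against 1.05% of all tested genes. Limma voom on the recovered reads also called 0. These fits left the difference between litters in their spread. With litter as a block, 1 of 9 (Grem1) was under that limit by limma, against 2.02% of all tested genes. In 9 of 9 genes the control and mutant levels overlapped, while 2.64% of all tested genes showed no overlap. Below, a difference is the mutant mean minus the control mean of log2(RPM + 1), a scale on which low genes appear to change less than they do. They were below 0 for 6 of 9 antagonists and for 54.4% of all tested genes, with medians of -0.13 and -0.01. The 95% intervals in the plot of differences show how large a change each gene could still hold.

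Among the ligand traps, Nog (chr11:89300638-89302332, minus strand, a gene with 1 exon) encodes noggin. Its level was 11.2, 14.2 and 14.7 RPM in controls 1 to 3 and 7.0, 13.6 and 11.6 RPM in mutants 1 to 3. Mutant 1 was the lowest library, and the other 2 mutants lay within the control range. The means were 13.3 ± 1.91 and 10.7 ± 3.38 RPM (SD, n = 3 per group here and below). The log2 difference was -0.33 (95% interval -0.93 to 0.28; limma, unadjusted p 0.242), and it was -0.33 within litter 1 and -0.31 within litter 2. Without mutant 1 it was -0.07 and without mutant 2 -0.50, so its size rested on single libraries.

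Grem1 (chr2:113746164-113758646, minus strand) encodes gremlin 1, a cystine-knot protein that traps BMP2 and BMP4. It was at 1.32, 1.82 and 2.72 RPM in controls 1 to 3 and at 0.355, 0.798 and 1.89 RPM in mutants 1 to 3. In each litter the mutants lay below the controls, but the litter 2 mutant lay above both litter 1 controls, so the groups overlapped. The reads behind these values numbered 40, 52 and 77 in controls and 10, 24 and 45 in mutants. Counting error alone gives 95% Poisson intervals of 0.170 to 0.653 RPM for mutant 1 and 0.940 to 1.79 RPM for control 1. The labels mention no molecular identifiers, so PCR copies may count as reads, and these intervals cover counting error only. The log2 difference was the lowest of the 9 genes at -0.60 (95% interval -1.37 to 0.18; limma, unadjusted p 0.113, adjusted p 1.00). With litter as a block the unadjusted p was 0.0296, against 2.02% of all tested genes under 0.05 in that fit, and the adjusted p was again 1.00 by limma. The difference was -0.71 within litter 1 and -0.37 within litter 2. For a gene at this level the size depends on the scale, and it was -1.08 with a pseudocount of 0.1 and -1.20 with limma voom. Without mutant 1 it was -0.35, and Bmper (-0.57) and Bambi (-0.41) were then lower.

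Chrd (chr16:20733127-20742384, plus strand) encodes chordin, which is inactivated by the protease BMP1 and its tolloid-like relatives. Its level was 44.4, 30.2 and 10.5 RPM in controls 1 to 3 and 37.4, 40.1 and 16.4 RPM in mutants 1 to 3. The litter 2 libraries were the 2 lowest, and within litter 1 the genotypes overlapped. Mutants and controls differed by 0.26 on the log2 scale (95% interval -1.03 to 1.54; limma, unadjusted p 0.654), with 0.08 within litter 1 and 0.61 within litter 2. Without control 3 it was -0.32, so its direction rested on that library.

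Twsg1 (chr17:65921972-65951226, minus strand) encodes twisted gastrulation, which joins chordin and BMP in a complex and can act for or against the signal. Controls 1 to 3 had 321, 273 and 215 RPM and mutants 1 to 3 had 231, 282 and 288 RPM. The groups had nearly the same mean, 269.7 ± 53.3 and 267 ± 31.5 RPM. This is a log2 difference of -0.0022 (95% interval -0.47 to 0.47; limma, unadjusted p 0.991), and its sign changed with the scaling of the libraries. Within litter 1 it was -0.21 and within litter 2 0.42.

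Bmper (chr9:23223076-23485200, plus strand) encodes a chordin-like protein, also known as crossveinless 2, that binds BMPs and is known from endothelium. Levels were 3.46, 5.0 and 6.57 RPM in controls and 4.44, 3.49 and 2.47 RPM in mutants. Control 3 was the highest library and mutant 3, its littermate, the lowest. For Bmper the log2 difference was -0.42 (95% interval -1.05 to 0.22; limma, unadjusted p 0.166), with -0.06 within litter 1 and -1.12 within litter 2. Without control 3 it was -0.23, and without mutant 3 -0.25. Summed endothelial markers (Pecam1, Cdh5, Kdr, Tek, Emcn) ranged from 243 to 308 RPM in controls and from 200.4 to 296 RPM in mutants; their part in the Bmper values was not tested.

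Fst (chr13:114452290-114458951, minus strand), encoding follistatin, had the highest difference of the 9 genes. It was at 27.5, 4.90 and 22.2 RPM in controls 1 to 3 and at 35.5, 19.5 and 45.5 RPM in mutants 1 to 3. Control 2 stood far below the other libraries, and mutant 2 lay below controls 1 and 3. The means were 18.2 ± 11.8 and 33.5 ± 13.1 RPM. They gave a log2 difference of 1.05 (95% interval -0.37 to 2.48; limma, unadjusted p 0.125, adjusted p 1.00), with 1.08 within litter 1 and 1.00 within litter 2. Without control 2 it was 0.34.

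The Fst levels ran beside those of the epithelial markers. Control 2 was lowest and mutant 2 next for Fst and for the 5 summed general epithelial markers, and mutant 3 was highest and mutant 1 next for both. All 5 of these markers were tested and had differences above 0 (0.78 to 2.02), and 0 of 5 had an unadjusted p under 0.05. None of the 5 was at 0 in any library. The 7 enamel markers (Amelx, Ambn, Enam, Klk4, Mmp20, Amtn, Odam) summed to between 2143 and 36754 RPM in controls and between 4454 and 47439.7 RPM in mutants, with another order of the libraries and mutant 1 highest. With the mean log2 level of the 7 enamel markers as a covariate, the Fst difference was 0.92 (limma, unadjusted p 0.193). With that of the 5 general epithelial markers, an alternative added once the values were known, it was 0.17 (limma, unadjusted p 0.471). That covariate was chosen because Fst followed these markers, so the value restates the shared pattern, and their part in the Fst difference was not tested.

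Sostdc1 (chr12:36314139-36318452, plus strand) was at 79.9, 38.8 and 134 RPM in controls 1 to 3 and at 83.3, 64.5 and 163 RPM in mutants 1 to 3. The litter 2 libraries were the 2 highest, and control 2 was again the lowest, followed by mutant 2. The means were 84.4 ± 48.0 and 104 ± 52.4 RPM, and the log2 difference was 0.35 (95% interval -0.81 to 1.52; limma, unadjusted p 0.500). The direction turned to -0.11 without control 2 and to -0.03 without mutant 3. With the general epithelial markers as a covariate it was -0.32 (limma, unadjusted p 0.269), and their part in the Sostdc1 values was likewise not tested.

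**Figure D2:**
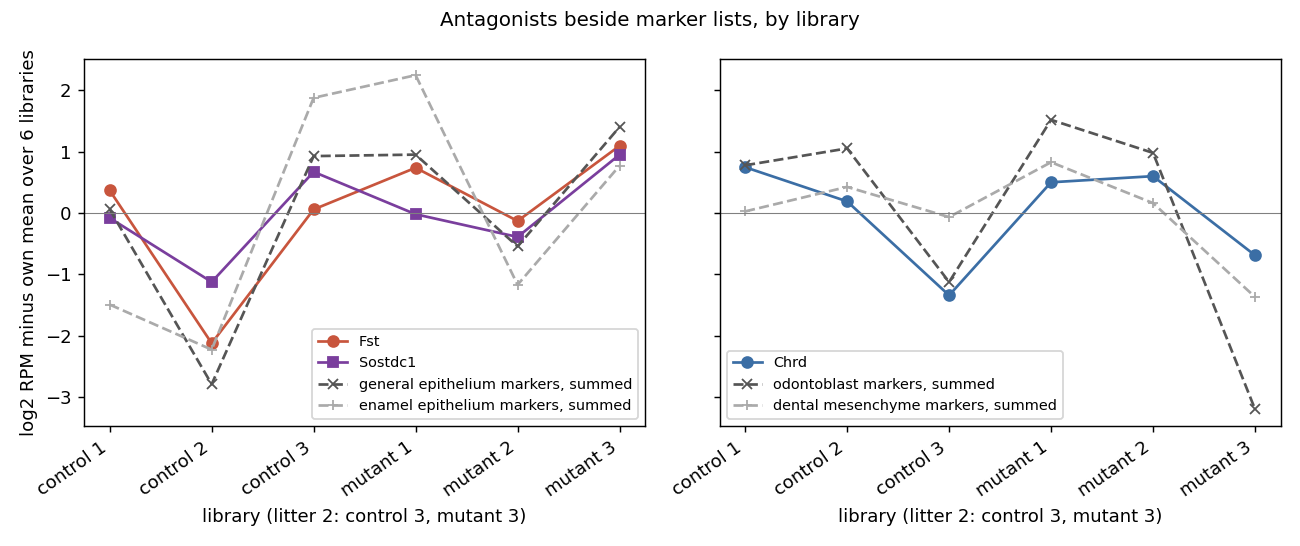
Fst and Sostdc1 beside summed epithelial markers (left) and Chrd beside summed odontoblast and mesenchymal markers (right), as log2 RPM minus each line's own mean over the 6 libraries. Control 2 is the low point of Fst, Sostdc1 and general epithelial markers, and control 3 and mutant 3 are low for Chrd and the summed odontoblast markers.

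Fstl1 (chr16:37776873-37836514, plus strand) had 1454, 1473 and 1005 RPM in controls 1 to 3 and 1059.8, 1390.5 and 1122 RPM in mutants 1 to 3. Control 3 and mutant 1 were the lowest libraries, and the range over all 6 was only 1.47-fold. The log2 difference was -0.13 (95% interval -0.81 to 0.56; limma, unadjusted p 0.678). It was -0.31 without control 3, -0.24 without mutant 2 and between -0.09 and -0.03 when 1 of the other 4 libraries was left out.

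Bambi (chr18:3507923-3516404, plus strand) is a BMP-induced gene in many cells. It was at 205, 282 and 458 RPM in controls 1 to 3 and at 194, 219 and 229.5 RPM in mutants 1 to 3. Control 3 stood above the rest, the mutants lay close together, and control 1 fell inside the mutant range. The means were 315 ± 129.5 and 214 ± 18.1 RPM. For Bambi the log2 difference was -0.48 (95% interval -1.16 to 0.20; limma, unadjusted p 0.140, adjusted p 1.00), with -0.22 within litter 1 and -0.99 within litter 2. Without control 3 it was -0.17, and without control 1 it was -0.75. With litter as a block the unadjusted p of Bambi was 0.0679 (limma), and it did not pass adjustment.

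Osteoblast markers also had differences below 0. This held for all 6 (Ibsp, Bglap, Sp7, Spp1, Alpl, Bglap2; median -0.43), against 54.4% of all tested genes. It was not particular to them: 4 of 4 odontoblast markers (median -0.63) and 6 of 7 dental mesenchyme markers (median -0.18) were also below 0. Within litter 1, Bglap was at 0.76 and Bglap2 at 0.86. Of the 6 osteoblast markers, 2 had an unadjusted p under 0.05 (limma), against 1.05% of all tested genes. None passed adjustment, although Spp1 did without control 1. Ibsp, a bone matrix gene, was at 35.5, 65.9 and 154 RPM in controls 1 to 3 and at 29.9, 23.6 and 25.7 RPM in mutants 1 to 3, without overlap (-1.41; limma, unadjusted p 0.0195, adjusted p 1.00). Spp1, which encodes osteopontin, was at 4.54, 96.1 and 159 RPM in controls and at 4.62, 3.36 and 5.20 RPM in mutants (-3.05; limma, unadjusted p 0.0312, adjusted p 1.00). Both were highest in control 3, as were Nog, Bambi, Grem1 and Bmper. Of the other 4 markers, Alpl was highest in control 3, Sp7 in control 2, and Bglap and Bglap2 in mutant 1. The sum of all 6 overlapped between the groups and was highest in control 2. It ran from 1026 to 2064 RPM in controls and from 524 to 1978 RPM in mutants. The part of these markers in the antagonist values was not tested.

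**Figure D3:**
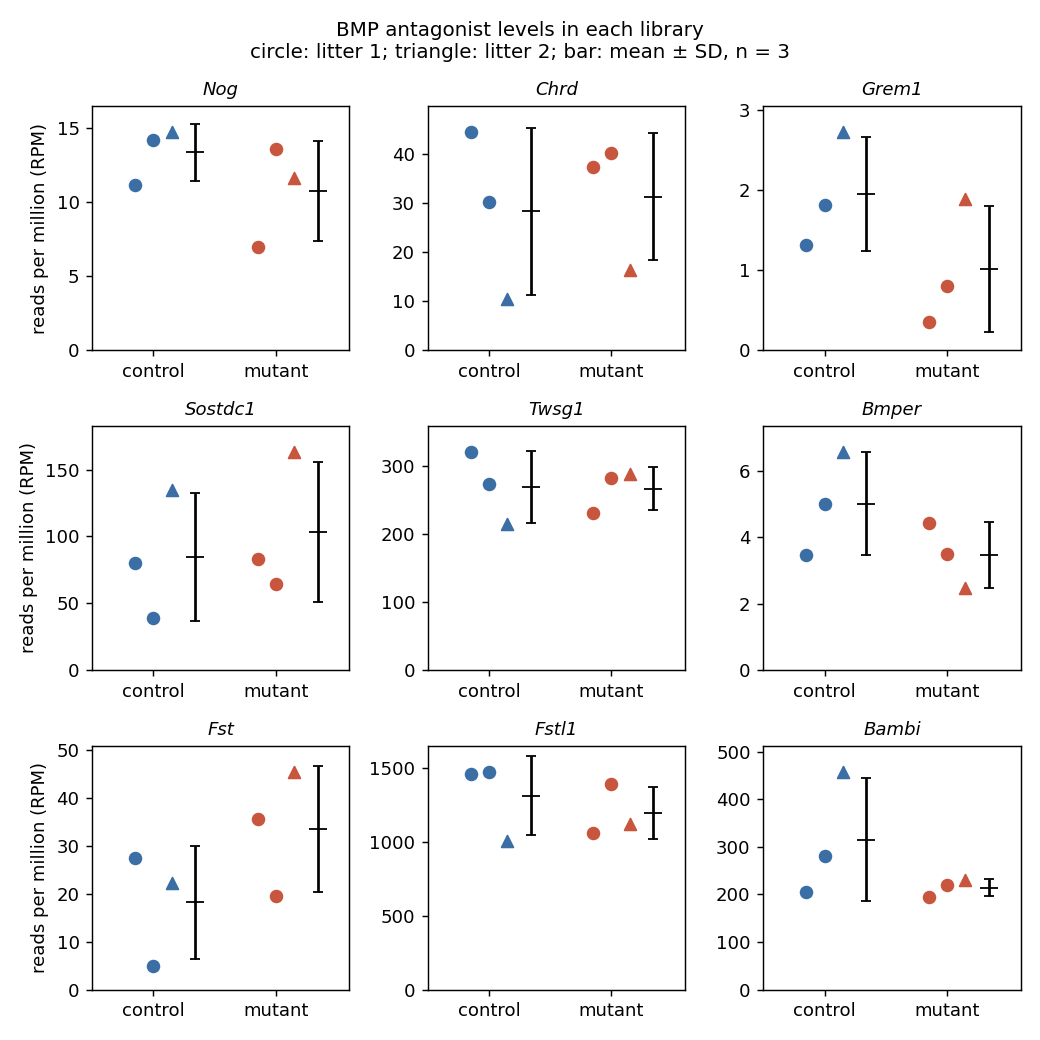
Level of each antagonist gene in RPM (vertical axes from 0) by genotype. Circles are litter 1 libraries, triangles litter 2 libraries, and bars the mean ± SD of 3. In every panel the control and mutant points overlap; Chrd is low and Sostdc1 high in both litter 2 libraries.

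**Figure D4:**
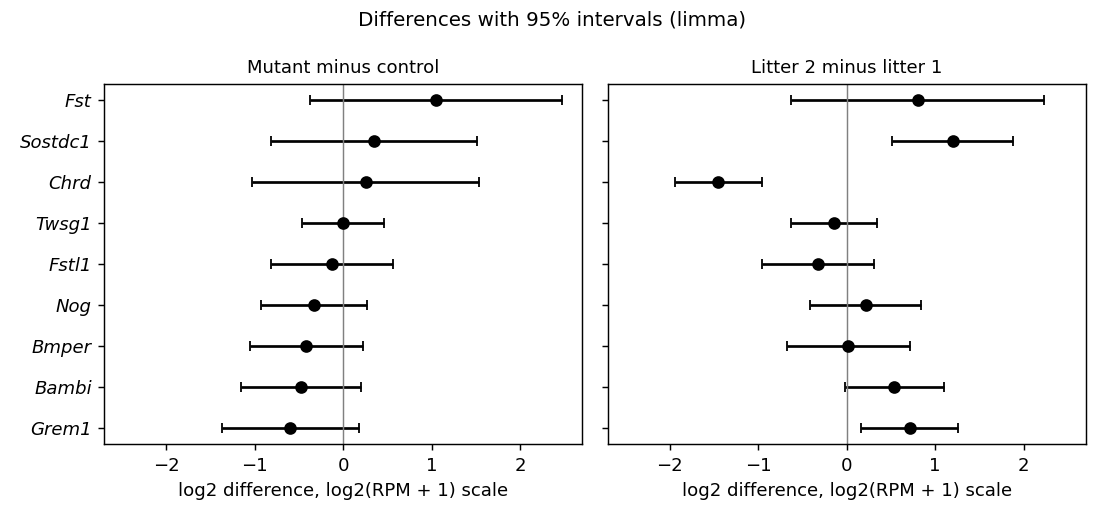
Log2 differences of the 9 genes with 95% intervals from limma, on the log2(RPM + 1) scale, for mutant minus control (left) and litter 2 minus litter 1 (right). Every interval on the left includes 0, while those of Chrd, Sostdc1 and Grem1 on the right do not.

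The litters were compared next, in a fit that also held genotype. Chrd was lower in litter 2 (10.5 and 16.4 RPM) than in all 4 litter 1 libraries (30.2 to 44.4 RPM). Its difference, litter 2 minus litter 1, was -1.45 (95% interval -1.94 to -0.96; limma with Benjamini-Hochberg, adjusted p 0.0449). It was the 1 of 9 antagonists that passed, against 0.872% of all tested genes. The call was narrow: the adjusted p by limma was 0.0537 with median-of-ratios scaling and 0.0570 with quantile scaling. It was 0.0633 without control 2, 0.252 without control 3, 0.195 without mutant 2 and 0.107 without mutant 3. The direction held in all 9 alternatives run, from -1.72 to -1.19. Litter, animal and dissection cannot be told apart here, since litter 2 holds 1 library per genotype.

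The summed odontoblast markers were low in the same 2 libraries as Chrd. The summed level of 4 such markers (Dspp, Dmp1, Phex, Nes) was 4879, 5905, 8149 and 5614 RPM in controls 1 and 2 and mutants 1 and 2, and 1306 and 311 RPM in control 3 and mutant 3. Dspp, a matrix gene of dentin, was at 4032 to 6872 RPM in litter 1 and at 817 and 113 RPM in control 3 and mutant 3, and it was the largest part of the sum in every library except mutant 3, where Nes was at 164 RPM. At an unadjusted p under 0.05 (limma), 3 of the 4 were lower in litter 2 and 1 was higher, against 13.7% and 7.21% of all tested genes. The exception, Dmp1, differed by 1.80 (limma, unadjusted p 0.0447) and was at 88.7 RPM in control 3 and 15.2 RPM in mutant 3, against 5.33 to 18.9 RPM in litter 1. The 7 summed dental mesenchyme markers were also lowest in mutant 3 and control 3, at 9775 and 24084 RPM, against 25679 to 44737 RPM in litter 1. Col1a1 and Col1a2 made up most of this sum. Of the 7 genes, 1 was lower and 1 higher in litter 2 at an unadjusted p under 0.05 (limma), Msx1 at -1.16 (p 0.00574) and Prrx1 at 0.57 (p 0.0276), while Twist1 was at 0.17 and Pax9 at 0.0027. Of 5 macrophage and osteoclast markers, 2 were lower in litter 2 at an unadjusted p under 0.05 (limma), Ptprc at -1.47 (p 0.00364) and Csf1r at -0.93 (p 0.0210). Of 3 tested erythroid markers, 2 were higher in litter 2 at that limit, Hbb-b1 at 1.97 (p 0.0122) and Alas2 at 1.68 (p 0.00660), and control 3 held by far the most Hbb-b1 (813 RPM, against 77.7 to 246 RPM elsewhere). The part of any of these markers in the Chrd difference was not tested. Within litter 1, mutant 1 had the highest odontoblast sum and control 1 the highest Chrd, so the orders differed there. The related gene Chrdl1, chordin-like 1, was at 6.32 and 7.75 RPM in litter 2 and at 11.6 to 43.1 RPM in litter 1 (-1.45; limma, unadjusted p 0.0192, adjusted p 0.169).

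Sostdc1 was at 134 and 163 RPM in litter 2 and at 38.8 to 83.3 RPM in litter 1, without overlap. The difference was 1.20 (95% interval 0.52 to 1.88; limma, unadjusted p 0.00468, adjusted p 0.105), so it did not pass adjustment. The 5 general epithelial markers had a median litter difference of 1.79, and 2 of 5 had an unadjusted p under 0.05 (limma): Krt14 at 1.80 (p 0.0489) and Cdh1 at 1.90 (p 0.0319). Their part in the Sostdc1 litter difference was not tested. Grem1 was at 1.89 and 2.72 RPM in litter 2 and at 0.355 to 1.82 RPM in litter 1, a difference of 0.71 (limma, unadjusted p 0.0182, adjusted p 0.167). With Chrd, 3 of 9 antagonists were under an unadjusted p of 0.05, against 20.9% of all tested genes. Without mutant 3 the unadjusted p of Grem1 was 0.169, and Bambi was under 0.05 in its place (0.93, p 0.0135; limma). Without control 1, Fst (1.28, p 0.0103; limma) joined the 3, making 4 of 9. With all 6 libraries, Chrd, Sostdc1 and Grem1 had litters that did not overlap, against 35.5% of all tested genes. Bambi differed by 0.54 (95% interval -0.02 to 1.10), Fst by 0.80, Nog by 0.22, Bmper by 0.02, Twsg1 by -0.14 and Fstl1 by -0.33, with unadjusted p from 0.0554 to 0.948 (limma). Single libraries set the size of several of these: Bambi was at 0.15 without control 3, Fst at 0.31 without control 2, Nog at 0.03 without mutant 1 and at 0.40 without mutant 2, and Fstl1 at -0.11 without control 3 and at -0.54 without mutant 3.

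Whether the genotype difference itself changed between litters was tested with an interaction term. Litter 2 holds 1 library per genotype, so each gene's residual spread in that test comes from the 4 litter 1 libraries alone. None of the 9 antagonists had an unadjusted p under 0.05 in that test, against 5.06% of all tested genes. The smallest belonged to Bmper (litter 2 less litter 1, -1.06, SE 0.45; limma, unadjusted p 0.0576, adjusted p 0.910) and Bambi (-0.77, SE 0.38; unadjusted p 0.0882). Differences had the same sign in both litters for 7 of 9 genes; Fstl1 and Twsg1 were the exceptions. Only for Fstl1 did both litter 1 mutants lie on one side of their controls and the litter 2 mutant on the other, a placement seen for 18.2% of all tested genes.

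Fst, Chrd and Sostdc1 varied most over the 6 libraries, with SDs of 1.04, 0.79 and 0.73 on the log2 scale. These exceeded the SD of 98.2%, 95.7% and 94.7% of all tested genes, whose median was 0.23. Twsg1 varied least at 0.22. For each of the 3 variable genes, the tested genes with the most similar profile were found by the mean absolute difference over the 6 libraries after centring each gene on its own mean. For Fst these were Casz1, Pof1b and Lgals3, at 0.10, 0.11 and 0.12 on the log2 scale. For Chrd they were Pdlim3, Adamtsl4 and Plxdc1, at 0.10, 0.11 and 0.12. For Sostdc1 they were Eps8l2, Krt4 and Hpn, at 0.09, 0.10 and 0.11. Casz1 was at 0.734 RPM in control 2 and between 4.92 and 11.6 RPM elsewhere, and Pof1b was listed at 0 in control 2. Pdlim3 was at 3.64 and 6.96 RPM in litter 2 and between 11.5 and 16.8 RPM in litter 1.

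Other genes of the pathway were taken from lists fixed by gene name. Of the 24 further antagonists and modulators reported here, 18 were tested, and 0 of these had an unadjusted p under 0.05 (limma; median difference 0.13). The lowest difference among them was that of Cer1, which encodes the secreted antagonist cerberus, at -0.39 (SE 0.27; limma, unadjusted p 0.189). Cer1 was at 1.71, 2.90 and 3.39 RPM in controls 1 to 3 and at 1.28, 2.5 and 1.59 RPM in mutants 1 to 3, with overlapping groups. The highest difference in this list was that of Rgma, a membrane-anchored BMP co-receptor, at 1.33 (limma, unadjusted p 0.0772). Rgma had 20.9, 3.15 and 9.82 RPM in controls and 27.1, 12.3 and 40.6 RPM in mutants, with control 2 lowest as for Fst.

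Of 8 proteases that cut chordin or process ligands, 7 were tested and 0 had an unadjusted p under 0.05. The control mean of Bmp1, which cleaves chordin, was 155 ± 11.6 RPM and the mutant mean 152 ± 21.8 RPM. The range of this list ran from Pcsk6 at -0.56 to Furin at 0.52. Of 14 BMP and activin ligand genes, 13 were tested and 0 had an unadjusted p under 0.05 (median -0.03). Gdf6, a ligand known from joint formation, had the lowest difference at -2.00 (SE 0.90; limma, unadjusted p 0.0603). It was at 1.25, 6.33 and 36.1 RPM in controls and at 1.28, 0.699 and 1.47 RPM in mutants, so control 3 dominated its mean. Gdf5 was highest at 0.98 (limma, unadjusted p 0.122).

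Among 8 receptor genes, 7 were tested and 0 had an unadjusted p under 0.05, from Bmpr1a at -0.27 to Acvr1b at 0.34. All 8 Smad genes were tested, from the inhibitory Smad7 at -0.35 to Smad3 at 0.04, and 0 had an unadjusted p under 0.05. Of 10 BMP target genes, all tested, 8 had differences below 0 (median -0.22), against 54.4% of all tested genes (median -0.01). They ran from Id1 at -0.40 to Id4 at 0.21, and 0 had an unadjusted p under 0.05. Id1, a direct BMP target, was at 82.9, 128 and 132 RPM in controls and at 73.9, 115 and 71.1 RPM in mutants, with overlap. The Id1 difference was -0.16 within litter 1 and -0.89 within litter 2, which holds 1 library per genotype. The 6 Wnt receptor genes that bear on the Wnt side of SOSTDC1 ranged from Fzd7 at -0.28 to Lrp6 at 0.03, again with 0 under an unadjusted p of 0.05. With litter as a block, 3 genes of these pathway lists had an unadjusted p under 0.05 (limma), against 2.02% of all tested genes: Gdf6 (p 0.0238), Smad7 (p 0.0272) and Pcsk6 (p 0.0359). As in the fit without the block, 0 of 14444 genes passed adjustment.

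**Figure D5:**
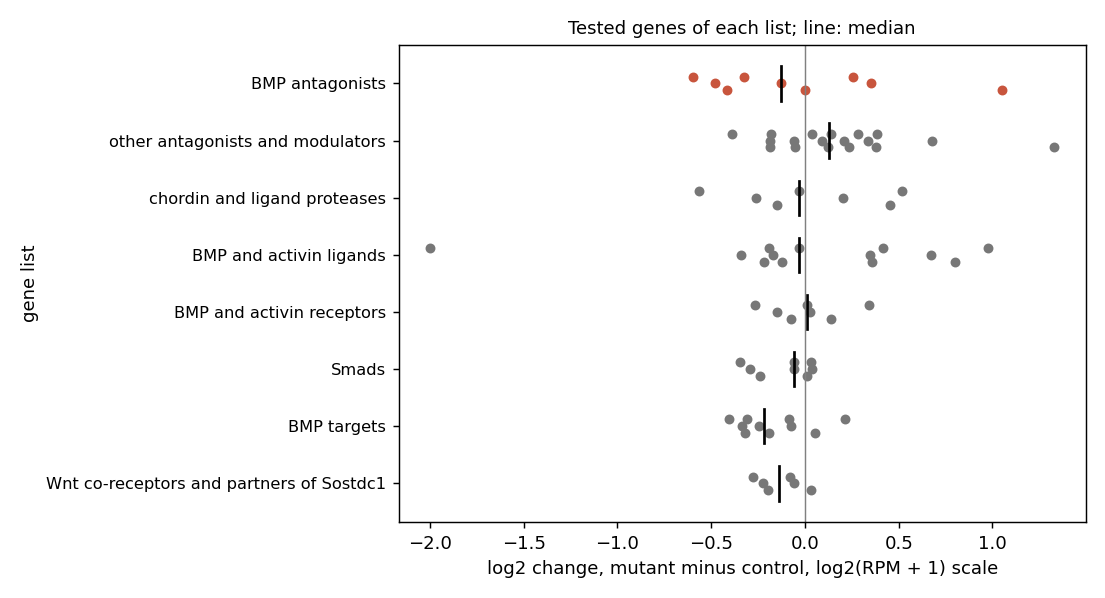
Difference in log2(RPM + 1), mutant less control, of each tested gene in the antagonist group (red) and the 7 further lists (grey), with the median of each list as a line. The antagonists run from -0.60 (Grem1) to 1.05 (Fst), and Gdf6 at -2.00 lies lowest of the genes shown.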

How the data were processed

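The authors deposited 1 table of log2 values for 6 poly(A) RNA libraries (Illumina NextSeq, per the labels' protocols). TopHat2 and mm10 are named in the submitters' processing notes; the counting program is not given in the sources used here. The table is titled RPKM, but, raised as powers of 2, 100% of the values above the column minimum were whole multiples of 1 step per column (within 0.01 read), shared by all genes. Gene length had thus not been divided out, and values were treated as RPM, with the column minimum as 0 reads. The denominator is inferred from the step. No 2 libraries agreed within counting error (chi-square per degree of freedom at least 23.2). A level of 3 reads was worth 0.0987 to 0.126 RPM.

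Groups came from the genotype labels. The fit, on log2(RPM + 1) of genes whose mean reached 1 RPM, used limma 3.58.1 under R 4.3.3 (trend, two-sided, Benjamini-Hochberg), which was tested on simulated data. The members and lists were chosen with earlier results of these data known; 2 listed genes are not reported here. All antagonists were named, along with Bmpr1a, Gli1, the extremes and genes with unadjusted p under 0.05 of each pathway list, and the 3 nearest profiles of the 3 most variable antagonists. Alternatives changed the pseudocount (0.1), filter (none, 5 RPM), scaling, variance model, blocks, covariates and libraries. Figures were drawn with matplotlib 3.10.9.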

Additional observations from a re-analysis of the deposited data

Results flagged for a closer look

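Fstl1 moved in opposite directions in the 2 litters. In litter 1 both mutants (1059.8 and 1390.5 RPM) lay below both controls (1454 and 1473 RPM), while in litter 2 the mutant (1122 RPM) lay above its control (1005 RPM). The log2 difference, mutant minus control, was -0.27 in litter 1 and 0.16 in litter 2. Litter 2 holds 1 library per genotype, so its direction rests on 1 pair. The residual spread behind the next values comes from litter 1 alone. The change between litters was 0.43 (SE 0.57; limma, unadjusted p 0.479, adjusted p 0.911). Such opposite placement occurred for 18.2% of all tested genes.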

How the results depend on the processing

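The general epithelial covariate was added once the values were known; all other alternatives were listed earlier. For mutant against control, 0 genes passed adjustment except with no filter (2 genes with 6 and 3 reads in all, AC122464.1 and H2-Q2) and without control 1 (Spp1); leaving out 1 library gave 0 to 1. The test left 152 genes under an unadjusted p of 0.05; this was 347 with no filter, 292 with the litter block, 524 with the replicate block, 319 in litter 1 alone, 425 with the general epithelial covariate and 68 to 325 without 1 library. The number of antagonists under that limit, 0 in the report, was 1 with the litter block and 1 in litter 1 alone (Grem1), 2 with the replicate block (Fst, unadjusted p 0.00712, and Grem1, 0.0230; against 3.63% of all genes) and 0 to 1 without 1 library (Bambi without control 1, Grem1 without mutant 3). None passed adjustment. The replicate numbers come from column names, and number 3 is litter 2. Deviations from the group mean correlated at -0.03, 0.75 and 0.50 for same-numbered libraries and from -0.67 to 0.09 for the others. Deviations within a group of 3 depend on each other, so these values cannot settle whether the libraries are pairs. Number entered only as the replicate block.

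Twsg1, at -0.0022, reversed to 0.013 with median-of-ratios scaling, 0.058 with quantile scaling, 0.0088 with voom, 0.067 with the enamel covariate and 0.055 with the general epithelial covariate, which also turned Fstl1 to 0.049 and Sostdc1 to -0.32. Without 1 library Chrd ran from -0.32 to 0.68, Sostdc1 from -0.11 to 0.77, Twsg1 from -0.16 to 0.13, Fst from 0.34 to 1.48, Bambi from -0.75 to -0.17, Nog from -0.50 to -0.07, Grem1 from -0.89 to -0.35, Bmper from -0.62 to -0.23 and Fstl1 from -0.31 to -0.03.

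For litter 2 against litter 1, the 126 genes passing adjustment became 0 with median-of-ratios or quantile scaling and 0 to 371 without 1 library, and the 3026 at an unadjusted p under 0.05 became 1393 to 4248. Chrd was at -1.41 and -1.39 under these scalings, with adjusted p just above 0.05, and from -1.72 to -1.19 without 1 library. Bmper reversed to -0.0022 with a pseudocount of 0.1 and ran from -0.51 to 0.55 without 1 library, and Twsg1 from -0.46 to 0.17. Except where fewer libraries or more genes entered, the cause was not tested. Depth limits Grem1 most, with 10 reads in mutant 1.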

Other observations

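Some listed genes lay below the limit for testing and still stood apart between libraries; they were chosen after their values were seen. Sost, which encodes sclerostin, the closest relative of SOSTDC1, had 102 reads in control 3 (3.60 RPM) and 0 to 4 reads in each other library. Control 3 was also the highest library for 4 of the 9 antagonists (Nog, Grem1, Bmper and Bambi) and for Gdf6, Ibsp, Spp1 and Hbb-b1. Mstn, encoding myostatin, a ligand that follistatin binds, had 27 to 43 reads in each litter 1 library (0.959 to 1.42 RPM) and 0 in both litter 2 libraries. At those depths 0 reads allow up to 0.106 RPM in control 3 and 0.126 RPM in mutant 3. No test was made of these genes.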
